A study of Sus scrofa with 15 samples.

Results

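The genes described here encode the subunits of RNA polymerases I, II and III (Pol I, Pol II and Pol III) and the general transcription factors that load them onto promoters. They were chosen by symbol, as known genes whose names begin with POLR1, POLR2, POLR3, GTF2, GTF3 or TAF and a digit, together with *SUPT4H1*, *SUPT5H*, *SUPT6H* and *SUPT16H*. This gave 77 genes among 28224 known genes and 43294 features in all. RNA was sequenced from 5 groups of 3 libraries each. PFF were primary porcine fetal fibroblasts of passage 2 to 5, the nuclear donors, cultured to contact inhibition. SCNT4c and SCNT8c were untreated somatic cell nuclear transfer (SCNT) embryos at the 4-cell and 8-cell stage, made by transferring such a nucleus into an enucleated oocyte. SCNT4c-KG were 4-cell embryos injected with *KDM4A* mRNA, which encodes an H3K9 demethylase, at 1000 ng/µl 5 h after activation and cultured with 0.1 µM GSK126, which blocks the H3K27 methyltransferase EZH2, from 0 to 48 h. SCNT4c-TDG were 4-cell embryos from donor fibroblasts transfected with a doxycycline-inducible *TDG* vector, selected with puromycin and kept in doxycycline (500 ng/ml) between 40 and 72 h. *TDG* encodes a glycosylase of active DNA demethylation. No untreated embryo from vector-carrying or doxycycline-treated cells was analysed here, so effects of *TDG* and of the vector, the selection and doxycycline cannot be told apart. Each embryo library was a pool of 30 embryos. Spread between pools is therefore the only error measured, and more RNA per embryo and a larger share of the RNA cannot be told apart.

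Pol I transcribes the large ribosomal RNA, Pol II the messenger RNAs and Pol III the transfer RNAs and the 5S ribosomal RNA. Each enzyme has its own large catalytic subunits. A set of small subunits, encoded by *POLR2E*, *POLR2F*, *POLR2H*, *POLR2K* and *POLR2L*, is built into all of them, and *POLR1C* and *POLR1D* serve both Pol I and Pol III. Pol II is placed at promoters by TFIIA, TFIIB, TFIID, TFIIE, TFIIF and TFIIH, Pol I by the factor SL1, and Pol III by TFIIIA, TFIIIC and TFIIIB. Early embryos live on RNA and protein stored in the oocyte until their own genome is transcribed, which in the pig begins in earnest around the 4-cell stage.

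Values are the deposited normalised read counts, which scale with transcript length, so levels are compared within a gene and, between genes, only after division by exon length. A gene was tested in limma on log2(value + 1), and it counted as higher or lower when the Benjamini-Hochberg adjusted p over all features was under 0.05 and the fold change was above 2. Libraries held 12354649 to 22868038 reads, and SCNT4c-KG was the shallowest group (12354649 to 15390472). *TDG* was between 49857 and 59944 in SCNT4c-TDG at most 2541 in SCNT4c and 3886 to 4738 in SCNT4c-KG. *KDM4A* was 1429 to 1476 in SCNT4c-KG and 134 to 313 in SCNT4c, and 555 to 918 in SCNT4c-TDG. The summed level of 10 fibroblast markers was 3855490 to 4085370 in PFF and 1620 to 5460 in the embryos. Of 10 oocyte and early embryo markers, 8 were detected in SCNT4c, where their sum was 76274 to 95043, while *GDF9* and *BMP15* were at 0 in all embryo groups. The embryo markers summed to 11.5 to 20.3 in PFF, where 9 of the 10 were at 0. Of 7 listed cumulus cell markers 6 were in the table, and they summed to 40.7 to 475 across the embryo libraries, were highest in SCNT4c-KG (273 to 475), and lacked *PTX3* and *AMH* in every embryo group. What part the cumulus signal had in the results was not tested.

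Of the 77 genes, 59 had a mean of at least 10 over the embryo libraries and were tested there, and 62 were tested between SCNT4c and PFF. A total of 12 had no value of 10 or more in any library, and 7 of these were at 0 in all 15. Some of these have an unnamed assembled transcript at the same locus, described further on. Exons of 29 of the 77 genes overlap those of another gene, and whether reads were counted by strand is not given in the sources used here.

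In SCNT4c-KG against SCNT4c, 32 of the 59 genes were higher and 4 were lower, with a median log2 fold change of 1.49. Over all 18942 features tested, 17.6% were higher and 19.6% were lower, and the median was -0.30. In SCNT4c-TDG against SCNT4c, 31 genes were higher and 6 were lower, with a median of 1.07, where 15.7% of all features were higher and 17.6% were lower and the median was -0.26. Both comparisons use the same SCNT4c libraries. By enzyme, all 7 shared subunits were higher in SCNT4c-KG and 6 of 7 in SCNT4c-TDG. Of the 6 tested genes particular to Pol I, SL1 included, 5 were higher and 1 was lower in SCNT4c-KG, against 4 and 1 in SCNT4c-TDG. Of the 31 tested Pol II genes, 17 were higher and 2 lower in SCNT4c-KG, and 18 and 2 in SCNT4c-TDG. Of the 15 tested Pol III genes, 3 were higher and 1 lower in SCNT4c-KG, and 3 were higher and 3 lower in SCNT4c-TDG. The median log2 fold change of the Pol III genes was 0.16 in SCNT4c-KG and 0.46 in SCNT4c-TDG, and that of the shared subunits 5.81 and 2.53.

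**Figure D1:**
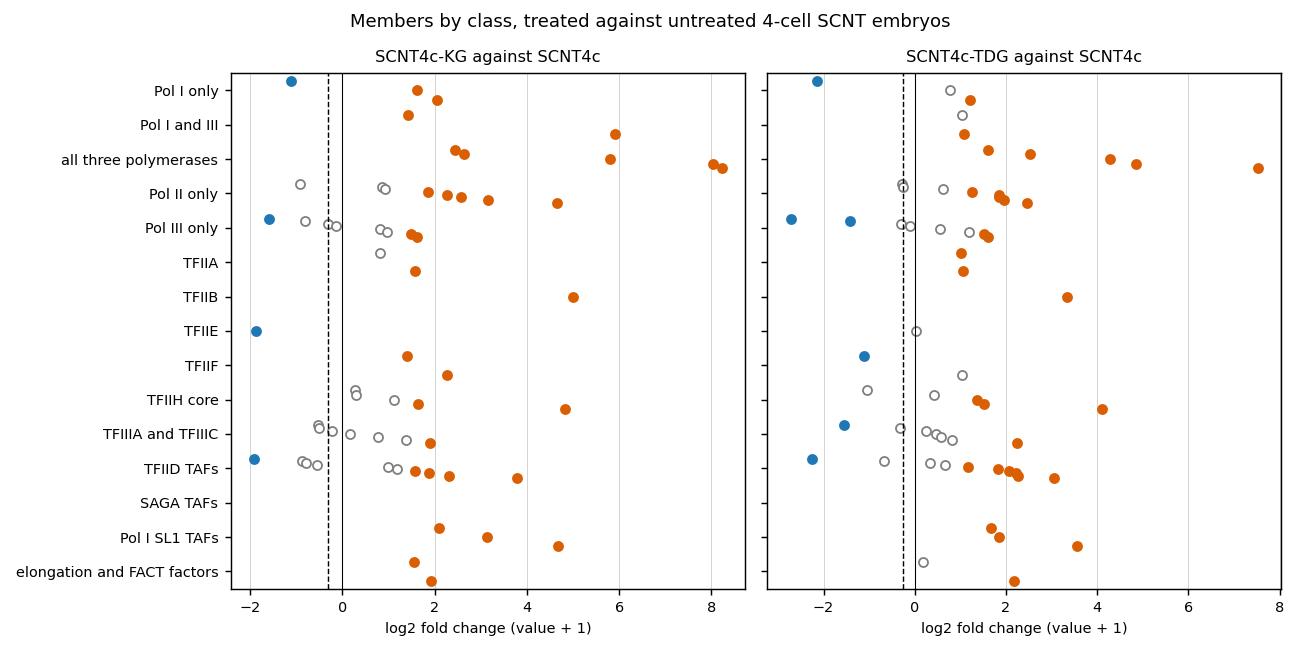
Log2 fold change of each tested gene (x axis) by class (y axis) in SCNT4c-KG and SCNT4c-TDG against SCNT4c, with filled points for genes that passed the test (orange higher, blue lower), open points for the others, and a dashed line at the median of all features tested (-0.30 and -0.26). The 5 subunits found in all polymerases reach the highest values, up to 8.23 and 7.53, while TFIIIA and TFIIIC genes lie between -0.53 and 1.90 in SCNT4c-KG and between -1.54 and 2.25 in SCNT4c-TDG.

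*POLR2K*, which encodes the smallest subunit common to the polymerases, showed the largest log2 fold change of the tested genes in both treated groups. In SCNT4c-KG the order changed after centring by exon length, described further on, when *POLR2K* had 5.74 and *POLR2L* 8.23. In SCNT4c-TDG *POLR2K* then had 6.52, still above *POLR2L* (5.14). The values of *POLR2K* in SCNT4c were 61.5, 39.3 and 32.4 (libraries a, b and c). In SCNT4c-KG they were 13179, 13986 and 12299, and in SCNT4c-TDG 6946, 8094 and 9408. Every treated library thus lay far above every untreated one (log2 fold change 8.23, SE 0.35, adjusted p = 1.35e-09 for SCNT4c-KG, and log2 fold change 7.53, SE 0.35, adjusted p = 6.64e-09 for SCNT4c-TDG). SCNT8c had 120.4, 131 and 62.3 and PFF 167, 144 and 142, so the treated embryos were also far above the donor cells. *POLR2L*, another small subunit at the base of the assembly, had 92.3, 51.6 and 33.2 in SCNT4c. It rose to 17080.0, 18459 and 9549.9 in SCNT4c-KG, with SCNT4c-KG replicate 3 the lowest (log2 fold change 8.03, SE 0.40, adjusted p = 7.21e-09). In SCNT4c-TDG it was 1645, 1519 and 1583 (log2 fold change 4.84, SE 0.40, adjusted p = 7.85e-07), 9.50 times below the SCNT4c-KG mean (log2 fold change -3.19, SE 0.40, adjusted p = 1.59e-04). A stretch of 1267 of its 2997 annotated exon bases is shared with other genes, among them *TSPAN4*. *POLR2F* had 78.1, 112 and 95.5 in SCNT4c, 5368, 6459 and 4372 in SCNT4c-KG and 1851, 1741 and 1972 in SCNT4c-TDG. The groups did not overlap, and the log2 fold changes were 5.81 and 4.28 (adjusted p = 4.27e-08 and 1.34e-06).

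*POLR2E*, *POLR2H* and *POLR1D* had smaller fold changes than these. *POLR2E* had 1169.7, 1822 and 1226 in SCNT4c against 7005, 8402 and 7200.2 in SCNT4c-KG and 4711, 4727 and 3384 in SCNT4c-TDG. Its log2 fold changes were 2.45 and 1.62 (adjusted p = 1.36e-05 and 5.34e-04). *POLR2H* had 597, 1059 and 945 in SCNT4c, and 5322, 5714 and 4765 and 4894, 4980.0 and 4731 in the treated groups, which overlapped each other (-0.11, adjusted p = 0.842 for their difference). *POLR1D*, shared by Pol I and Pol III, had 6282, 5178 and 4591 in SCNT4c, 16861, 15816 and 10949 in SCNT4c-KG and 11844, 11303 and 10319 in SCNT4c-TDG, with log2 fold changes of 1.43 and 1.07 (adjusted p = 9.24e-04 and 0.00736). Its annotated exons span 792 bases, and after centring by exon length its log2 fold changes were -0.01 and 0.32, neither of which passed. The call in SCNT4c-TDG was lost without SCNT4c library c too (0.97). *POLR1C*, its partner in the assembly, rose in SCNT4c-KG, from 57.6, 48.9 and 29.1 to 2447, 2806 and 2844 (log2 fold change 5.92, SE 0.60, adjusted p = 3.53e-06). In SCNT4c-TDG it had 128, 94.4 and 59.7 (1.03, adjusted p = 0.199), and the difference between the treated groups was -4.89 (adjusted p = 1.30e-04). With the assembled transcripts of the locus added, these were 4.78 for SCNT4c-KG against SCNT4c and -3.80 between the treated groups. Exons of *POLR1C* and *XPO5* overlap by 1235 bases, and *XPO5* itself was higher in both SCNT4c-KG and SCNT4c-TDG (log2 fold changes 6.94 and 6.35).

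**Figure D2:**
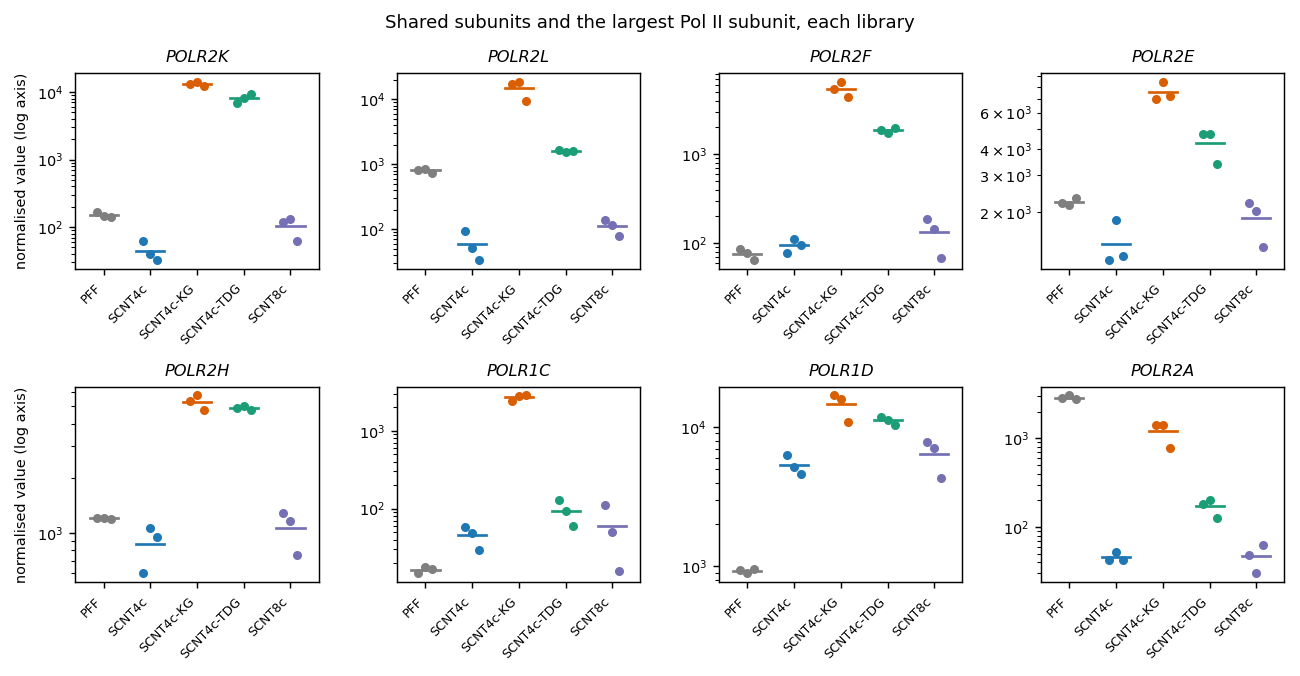
Normalised value (y axis, log scale) of the shared subunits and of *POLR2A* in each library (points) and the group mean (bar) for PFF, SCNT4c, SCNT4c-KG, SCNT4c-TDG and SCNT8c (x axis). *POLR2K*, *POLR2L* and *POLR2F* are at 32.4 to 112 in SCNT4c and at 1519 or more in every treated library, while *POLR1C* is raised in SCNT4c-KG.

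The promoters of the subunits of all polymerases and of the genes that fell in both treated groups are shown. Whether promoter sequence bears on the fold changes was not tested. Each is the 200 bases before the start annotated in RefSeq for Sscrofa11.1, 5′ to 3′ on the gene's strand. Capitals mark matches on either strand to 6 short motifs. These were the GC box with the letters GGGCGG, the box named after its letters CCAAT, the TATA box with the letters TATAAA, the core of the ETS family with the letters CCGGAAG, the NRF1 core with the letters GCATGCGC and the YY1 core with the letters AAGATGG. Among the subunits of all polymerases, *POLR2K* lies at chr4:36852623-36852822, minus strand, *POLR2L* at chr2:534557-534756, minus strand, *POLR2F* at chr5:9917722-9917921, minus strand, *POLR2E* at chr2:77330555-77330754, plus strand and *POLR2H* at chr13:122249887-122250086, plus strand.
POLR2K: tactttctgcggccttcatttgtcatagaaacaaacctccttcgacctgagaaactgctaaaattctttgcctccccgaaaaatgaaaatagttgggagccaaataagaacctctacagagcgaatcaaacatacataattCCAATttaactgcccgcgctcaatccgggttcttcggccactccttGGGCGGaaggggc
POLR2L: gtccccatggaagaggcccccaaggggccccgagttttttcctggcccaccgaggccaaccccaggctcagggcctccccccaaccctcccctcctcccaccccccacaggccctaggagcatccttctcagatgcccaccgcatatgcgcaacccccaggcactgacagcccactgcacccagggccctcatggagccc
POLR2F: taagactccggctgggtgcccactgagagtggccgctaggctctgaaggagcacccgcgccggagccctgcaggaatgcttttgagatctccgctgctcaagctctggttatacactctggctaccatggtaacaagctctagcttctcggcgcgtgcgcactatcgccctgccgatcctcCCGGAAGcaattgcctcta
POLR2E: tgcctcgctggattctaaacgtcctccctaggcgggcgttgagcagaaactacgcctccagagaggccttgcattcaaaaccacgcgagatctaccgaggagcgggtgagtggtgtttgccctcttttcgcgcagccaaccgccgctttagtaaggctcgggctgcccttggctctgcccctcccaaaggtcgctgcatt
POLR2H: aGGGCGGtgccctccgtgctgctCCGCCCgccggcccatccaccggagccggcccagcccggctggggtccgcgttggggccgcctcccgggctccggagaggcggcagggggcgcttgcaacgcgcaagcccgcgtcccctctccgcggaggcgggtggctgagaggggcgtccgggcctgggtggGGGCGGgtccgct
The genes that fell in both treated groups, described further on, are *POLR1E* at chr1:238197459-238197658, plus strand, *POLR3K* at chr3:41571509-41571708, plus strand and *TAF12* at chr6:85643088-85643287, minus strand.
POLR1E: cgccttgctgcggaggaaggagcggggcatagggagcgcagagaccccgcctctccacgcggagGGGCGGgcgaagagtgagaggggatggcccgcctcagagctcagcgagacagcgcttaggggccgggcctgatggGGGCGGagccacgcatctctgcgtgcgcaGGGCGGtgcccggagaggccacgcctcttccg
POLR3K: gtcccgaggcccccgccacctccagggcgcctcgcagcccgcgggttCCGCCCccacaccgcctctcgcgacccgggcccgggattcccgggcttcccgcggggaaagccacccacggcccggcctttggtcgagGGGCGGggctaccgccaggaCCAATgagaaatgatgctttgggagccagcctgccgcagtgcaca
TAF12: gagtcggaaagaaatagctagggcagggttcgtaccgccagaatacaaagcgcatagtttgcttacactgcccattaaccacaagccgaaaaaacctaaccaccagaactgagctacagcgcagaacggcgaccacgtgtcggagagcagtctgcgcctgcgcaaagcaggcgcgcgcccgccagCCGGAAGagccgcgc
No motif was held by all of these windows, and those of *POLR2E* and *POLR2L* held none of the 6. Over the 77 genes, 40 held a GC box (51.9%, against 35.5% of 27788 promoters), 11 the ETS core (14.3% against 5.90%), 23 the CCAAT letters (29.9% against 27.5%) and 4 a TATA box (5.19% against 8.79%). The NRF1 core was held by 3 (3.90% against 1.77%) and the YY1 core by 4 (5.19% against 3.21%). The median GC content was 58.5% in the 77 genes and 56% in all promoters, and the median observed-to-expected CpG ratio was 0.775 and 0.519. *POLR2L* stood apart among the 5 subunits of all polymerases, with a CpG ratio of 0.198 where the other 4 had 0.741 to 0.877. These windows rest on annotated starts, which were not checked against the embryos' own transcripts.

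Among the subunits of Pol I alone, *POLR1A*, the largest and catalytic one, had 179, 466 and 448 in SCNT4c against 1273, 1542 and 1341 in SCNT4c-KG (log2 fold change 2.04, SE 0.38, adjusted p = 7.64e-04). In SCNT4c-TDG it had 697, 546 and 492, above all SCNT4c libraries but short of the test (0.77, adjusted p = 0.128). *PTCD3*, whose exons overlap those of *POLR1A*, was higher in both groups (3.53 and 2.70). *POLR1B*, the other catalytic subunit, was 185, 395 and 523 in SCNT4c, 796, 1066 and 1291 in SCNT4c-KG and 788, 949 and 650.4 in SCNT4c-TDG, with log2 fold changes of 1.61 and 1.219 (adjusted p = 0.0117 and 0.0488). Neither passed when SCNT4c library a, the lowest of its group, was left out (adjusted p = 0.0613 and 0.21), and the call in SCNT4c-TDG was lost in 7 of 17 alternatives, with each SCNT4c-TDG library left out among them. *POLR1E*, which forms a Pol I subcomplex related to TFIIF, went the opposite way. Its values were 13244, 11797 and 17199.8 in SCNT4c, 5716, 7186 and 6332 in SCNT4c-KG and 3417, 3059.9 and 3029 in SCNT4c-TDG, with no overlap between any of these groups (log2 fold change -1.12, SE 0.26, adjusted p = 0.00322 for SCNT4c-KG and log2 fold change -2.14, SE 0.26, adjusted p = 2.06e-05 for SCNT4c-TDG). In SCNT4c-KG the fold change came under 2 without SCNT4c library c (-0.97) and in DESeq2 (-0.98). SCNT8c, at 15660.5, 14081 and 9347, overlapped SCNT4c.

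The TAF subunits of SL1, which recruits Pol I to the ribosomal RNA promoter, rose in both treated groups wherever they were measured. *TAF1A* had 30.8, 41.9 and 29.1 in SCNT4c, 735, 996 and 936 in SCNT4c-KG and 324, 354 and 592 in SCNT4c-TDG, with log2 fold changes of 4.68 and 3.57 (adjusted p = 2.06e-06 and 3.27e-05). *TAF1D* went from 1507 to 13084 and 5393 on average (3.13 and 1.85 on the log2 scale), and *TAF1B* from 969 to 4014 and 2982 (2.09 and 1.67). *TAF1C* was not above 2.54 in any library. Pol I genes outside the rule were read from a separate list. The subunit genes *ZNRD1* and *TWISTNB* were higher in both groups, *ZNRD1* with means of 31.9 in SCNT4c, 2406 in SCNT4c-KG and 939 in SCNT4c-TDG (log2 fold changes 6.19 and 4.88, or 4.75 and 4.13 after centring by exon length). *TWISTNB* had log2 fold changes of 3.05 and 1.76. *UBTF*, which encodes the architectural factor of ribosomal RNA genes, was higher in SCNT4c-KG, with 633, 367 and 514 against 2610.3, 2949 and 1542 (2.21, adjusted p = 3.10e-04). In SCNT4c-TDG *UBTF* had 659.8, 413 and 363, below every SCNT4c-KG library (-2.30, adjusted p = 7.77e-04). *TTF1*, a terminator factor, was higher in SCNT4c-KG as well (3.04, from a mean of 30.1). *CD3EAP*, a Pol I subunit gene that also passed there, was listed at 0 in all SCNT4c libraries and had 24.5, 52.0 and 41.3 in SCNT4c-KG (adjusted p = 8.36e-04), a call lost when it was summed with the assembled transcripts of its locus (adjusted p = 0.0586). *RRN3*, the initiation factor that makes Pol I competent, had log2 fold changes of -0.19 and -0.14 and did not pass.

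Of the 8 genes particular to Pol II, 5 were higher in each treated group and 0 were lower in limma, where 17.6% of all features were higher and 19.6% lower in SCNT4c-KG, and 15.7% and 17.6% in SCNT4c-TDG. *POLR2A*, whose product is the catalytic subunit with the long carboxy-terminal repeat domain, had 42.6, 52.4 and 42.3 in SCNT4c against 1411, 1416 and 788 in SCNT4c-KG (log2 fold change 4.64, SE 0.46, adjusted p = 2.58e-06). In SCNT4c-TDG it had 184, 203 and 125 (log2 fold change 1.86, SE 0.46, adjusted p = 0.00587), below every SCNT4c-KG library. PFF, at 2829, 3050.3 and 2758, were above all embryos. *POLR2B*, the second largest subunit, showed the reverse order. It had 999, 1549 and 2695 in SCNT4c, 2537, 2765 and 4084 in SCNT4c-KG, where the groups overlapped (0.93, adjusted p = 0.0732) and the test was passed in 2 of 17 alternatives, without SCNT4c library c (1.30) and after centring by exon length (1.19), and 8825, 9610.2 and 8333 in SCNT4c-TDG (log2 fold change 2.47, SE 0.39, adjusted p = 2.28e-04). *POLR2C*, part of the platform on which the enzyme is built, rose in both, with 1090.0, 1644 and 962 in SCNT4c, 10739, 12779 and 8892 in SCNT4c-KG and 5570.2, 4866 and 3759 in SCNT4c-TDG (log2 fold changes 3.15 and 1.96). *POLR2J*, its partner in that platform, had 5642, 6274 and 3683 in SCNT4c and overlapping values in both treated groups (0.86 and -0.26). The stalk subunit genes differed. *POLR2D* rose in both (log2 fold changes 1.85 and 1.25), and *POLR2G* rose in SCNT4c-KG (2.26), while in SCNT4c-TDG it had 0.63 (adjusted p = 0.3). The calls of *POLR2D* in SCNT4c-TDG, without SCNT4c library a (adjusted p = 0.0509), and of *POLR2G* in SCNT4c-KG, after centring by exon length (0.82, adjusted p = 0.159), were lost. *POLR2I*, a cleavage and fidelity subunit, rose from 116 to 709 and 429.7 (log2 fold changes 2.58 and 1.85). Centred by exon length, *POLR2I* had 1.14 in SCNT4c-KG and 1.10 in SCNT4c-TDG, where it no longer passed (adjusted p = 0.0565). *POLR2M*, a Pol II-associated protein, was 3074, 1592 and 2498 in the same groups and passed in neither comparison.

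Per kilobase of exon, the 12 subunits of Pol II lay within a 15.2-fold range of means in PFF, from 130 for *POLR2F* to 1978 for *POLR2E*. In SCNT4c the range was 1192-fold, from 6.81 for *POLR2A* to 8112 for *POLR2J*. It was 149.6-fold in SCNT4c-KG, where *POLR2A* was still the lowest (179) and *POLR2K* the highest (26791), and 653-fold in SCNT4c-TDG, again between *POLR2A* (25.4) and *POLR2K* (16598). The median over the 12 was 633 in PFF, 378 in SCNT4c, 4535 in SCNT4c-KG, 2444 in SCNT4c-TDG and 507 in SCNT8c. The embryo libraries came from small pools and PFF RNA was extracted by another method, so levels per kilobase between embryos and PFF carry that difference too.

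As a group, the genes particular to Pol III had lower median fold changes against SCNT4c in both treated groups than the shared subunits and the genes of Pol I and of Pol II. *POLR3A*, the catalytic subunit, had 632, 1067 and 1194 in SCNT4c, 662, 845 and 1086 in SCNT4c-KG and 649, 898 and 751 in SCNT4c-TDG, all overlapping (-0.14, adjusted p = 0.789 and -0.29, adjusted p = 0.556). *POLR3B*, the other large subunit, had 652, 800.4 and 955, 1418, 1514 and 1756 and 1164, 1175 and 1145. Both treated groups lay above SCNT4c, but the fold change stayed under 2 in SCNT4c-KG (log2 fold change 0.97, SE 0.31, adjusted p = 0.0212) and the test was not passed in SCNT4c-TDG (0.55, adjusted p = 0.177). In SCNT4c-KG *POLR3B* did pass in 6 of 17 alternatives, edgeR (1.05) and DESeq2 (1.11) among them. *POLR3G*, one of the alternative subunits of the Pol III initiation subcomplex and the one associated with undifferentiated cells, rose from 3937, 3341 and 4456 to 12159.9, 11707 and 11856 and 10018, 10956 and 12521 (log2 fold changes 1.62 and 1.52, adjusted p = 7.45e-05 and 1.35e-04). *MBLAC2*, with overlapping exons, was higher in SCNT4c-TDG (2.72) and had 0.13 in SCNT4c-KG. Its paralog *POLR3GL* was at 0 in every library, so the balance of the pair cannot be read. *POLR3E* rose from 96.2 to 258 and 281 (log2 fold changes 1.49 and 1.61). The *POLR3E* call in SCNT4c-KG was lost without SCNT4c library b, without SCNT4c library c and without SCNT4c-KG replicate 2 (adjusted p = 0.0554, 0.0611 and 0.0532). *POLR3K*, which encodes the subunit for RNA cleavage and termination, fell sharply. It had 19718, 18863 and 19951 in SCNT4c, 7779, 7693 and 4446 in SCNT4c-KG and 2882, 3246 and 2743 in SCNT4c-TDG (log2 fold change -1.60, SE 0.27, adjusted p = 3.37e-04 and log2 fold change -2.72, SE 0.27, adjusted p = 3.48e-06). *POLR3D* fell in SCNT4c-TDG, from 5450.2, 5532 and 6406 to 2424, 2203 and 1869 (-1.42, adjusted p = 3.84e-04), and had -0.32 in SCNT4c-KG (adjusted p = 0.313). *POLR3C* and *POLR3F* passed in neither comparison.

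Of the 7 genes of TFIIIA and TFIIIC, which bind the internal promoters of 5S and transfer RNA genes, *GTF3C4* was the one that rose. It had 95.4, 82.1 and 106 in SCNT4c, 333, 326 and 409 in SCNT4c-KG and 490.0, 489 and 383 in SCNT4c-TDG (log2 fold changes 1.90 and 2.25, adjusted p = 0.00132 and 3.95e-04). *GTF3C2* fell in SCNT4c-TDG, from 3942 to 1348 (-1.54, adjusted p = 5.98e-04). *GTF3A* and *GTF3C1* stayed low, at 14.2 to 82.5 and at 208 to 577 over SCNT4c and both treated groups. From the list outside the rule, the small nuclear RNA factor genes *SNAPC1*, *SNAPC3* and *SNAPC5* were higher in both treated groups, with log2 fold changes of 1.81, 1.49 and 2.68 in SCNT4c-KG and of 1.24, 1.60 and 1.56 in SCNT4c-TDG. *SNAPC2* was higher in SCNT4c-KG (2.41). *BDP1*, a TFIIIB subunit gene, was higher in SCNT4c-TDG (2.06, adjusted p = 0.00285) and had 0.77 in SCNT4c-KG (adjusted p = 0.192). *MAF1*, a repressor of Pol III, had log2 fold changes of 0.72 and -1.01 and passed in neither. In all, 17 of the 32 tested genes of the list were higher and 2 were lower in SCNT4c-KG, and 13 and 2 in SCNT4c-TDG. Over all features the shares were 17.6% and 19.6% in SCNT4c-KG and 15.7% and 17.6% in SCNT4c-TDG.

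Among the Pol II initiation factors, *GTF2B* changed most in SCNT4c-KG. It encodes TFIIB, which bridges promoter-bound TFIID and Pol II. It had 151, 142 and 144 in SCNT4c, 4708, 4588 and 4848 in SCNT4c-KG and 1624, 1602 and 1248 in SCNT4c-TDG (log2 fold change 5.01, SE 0.30, adjusted p = 1.99e-08 and log2 fold change 3.34, SE 0.30, adjusted p = 1.41e-06). Summed with the assembled transcripts of its locus, *GTF2B* had 4.14 and 2.496. By its own entry neither treated group overlapped SCNT4c, PFF (214, 243 and 176) or the other. *GTF2A1* and *GTF2A2* encode the TFIIA subunits. *GTF2A1* rose from 2753 to 8199 in SCNT4c-KG and 5549.6 in SCNT4c-TDG (log2 fold changes 1.57 and 1.01), and *GTF2A2* rose in SCNT4c-TDG (1.05), with 0.82 in SCNT4c-KG, under the 2-fold limit. In SCNT4c-TDG both also fell under that limit in 2 of 17 alternatives, *GTF2A1* without SCNT4c library a or SCNT4c-TDG replicate 2 (0.99 and 0.94) and *GTF2A2* without SCNT4c library c or SCNT4c-TDG replicate 2 (0.90 and 0.98). *GTF2E1*, the larger TFIIE subunit, had 136, 229 and 342 in SCNT4c and fell to 58.8, 36.8 and 98.3 in SCNT4c-KG (-1.86, adjusted p = 0.0342), a call lost in 7 of its alternatives. In SCNT4c-TDG it had 227, 219 and 223 (0.02, adjusted p = 0.986). *RABL3*, whose exons overlap those of *GTF2E1*, was higher in both treated groups (3.43 and 3.68).

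The TFIIF genes split between the treatments. *GTF2F1*, the larger subunit, had 3313, 1981 and 2759.8 in SCNT4c, 9283, 6433 and 5707 in SCNT4c-KG and 1179.9, 1289 and 1186 in SCNT4c-TDG. All SCNT4c-KG libraries were above and all SCNT4c-TDG libraries below SCNT4c (log2 fold change 1.41, SE 0.31, adjusted p = 0.00244 and log2 fold change -1.11, SE 0.31, adjusted p = 0.0121), and the treated groups differed by -2.52 (adjusted p = 1.29e-04). The fall in SCNT4c-TDG was lost in 5 alternatives, among them centring by exon length (-0.72, adjusted p = 0.0681) and edgeR (-0.86, adjusted p = 0.0506). *GTF2F2*, its partner, rose in SCNT4c-KG from 114, 113 and 89.7 to 443, 584 and 506 (2.26, adjusted p = 3.87e-04) and had 212, 252 and 186 in SCNT4c-TDG (1.03, adjusted p = 0.0506).

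TFIIH opens the promoter and phosphorylates Pol II, and its core genes are also used in DNA repair. *GTF2H5*, its smallest subunit, had 14.99, 30.6 and 16.6 in SCNT4c, 544, 725 and 509 in SCNT4c-KG and 355, 353 and 352 in SCNT4c-TDG (log2 fold change 4.82, SE 0.57, adjusted p = 1.69e-05 and log2 fold change 4.10, SE 0.57, adjusted p = 8.22e-05). *GTF2H3* rose to 2839, 3982 and 3691 and 2678, 3159 and 2859 from 478, 1649 and 1761, where SCNT4c library a was the lowest (log2 fold changes 1.64 and 1.37), and without that library neither passed (adjusted p = 0.0595 and 0.161). In SCNT4c-TDG the call was lost in 5 of 17 alternatives, among them with each SCNT4c-TDG library left out (adjusted p = 0.0703, 0.0951 and 0.0752). *GTF2H1* rose in SCNT4c-TDG alone of the treated groups, from 380.2, 358 and 489 to 1157, 1267 and 1077 (1.52, adjusted p = 0.00583), and was above SCNT4c-KG, at 459, 681 and 395 (log2 fold change 1.224, adjusted p = 0.0358). *GTF2H2* and *GTF2H4* passed in neither comparison with SCNT4c. From the list outside the rule, *CDK7*, the kinase of TFIIH, was higher in both groups (2609.9, 12493 and 6794, with log2 fold changes of 2.31 and 1.40), and *ERCC3*, its translocase, had 0.26 and -0.10 and did not pass. *MNAT1*, the assembly factor of that kinase, went from 0, 44.6 and 71.4 to 119, 132 and 157 in SCNT4c-TDG. It passed there (3.19, adjusted p = 0.0415), but the call was lost in 9 of 17 alternatives, and without SCNT4c library a, at 0, the log2 fold change was 1.24 (adjusted p = 0.115).

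TFIID recognises the core promoter through TBP and the TAFs. Of the 10 TFIID TAFs tested in embryos, 4 were higher and 1 was lower in SCNT4c-KG (all features 17.6% and 19.6%), and 6 and 1 in SCNT4c-TDG (all features 15.7% and 17.6%). *TAF10*, a histone-fold subunit, had 24.5, 35.8 and 67.3 in SCNT4c, 495, 657 and 512 in SCNT4c-KG and 393, 302 and 306 in SCNT4c-TDG (log2 fold change 3.78, SE 0.48, adjusted p = 2.88e-05 and log2 fold change 3.05, SE 0.48, adjusted p = 2.03e-04). Its neighbour *ILK*, with which it shares 56 exon bases, had log2 fold changes of 3.10 and 0.11. *TAF7* rose in both, from 819, 1122 and 756 to 4687, 3923 and 4556 and 4028, 4451 and 3919.9 (log2 fold changes 2.30 and 2.22). *TAF4B*, a TAF with known roles in germ cells, rose from 486, 427 and 472 to 1057, 1218 and 1992 and 2304, 2564 and 1883 (log2 fold changes 1.57 and 2.27). *TAF11* rose in SCNT4c-KG (1749.9 to 6192, log2 fold change 1.87) and had 0.33 in SCNT4c-TDG. *TAF2*, *TAF3* and *TAF13* rose in SCNT4c-TDG (1.17, 2.07 and 1.82), where the same genes had -0.55, 1.18 and 0.99 in SCNT4c-KG. The calls of *TAF2* and *TAF3* were each lost in 4 of 17 alternatives, in both cases without SCNT4c-TDG replicate 1, 2 or 3, and without SCNT4c library b for *TAF2* (adjusted p = 0.0629) and library a for *TAF3* (1.29, adjusted p = 0.116). *TAF12*, another histone-fold subunit, fell in both, from 6805, 8265 and 6888 to 2124, 1949 and 1773 in SCNT4c-KG and 1337, 1471 and 1819 in SCNT4c-TDG (log2 fold change -1.91, SE 0.25, adjusted p = 4.34e-05 and log2 fold change -2.25, SE 0.25, adjusted p = 1.09e-05). *TAF5* and *TAF9B* passed in neither comparison.

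The paralogs *TAF4*, *TAF7L*, *TAF9* and *TAF5L* had at most 2.55 in any library, *GTF2A1L* at most 29.9 and *TAF6L* at most 26.1, so no balance within a paralog pair was tested. *TBP* itself was at most 35.9 in any library. Its oocyte-enriched relative *TBPL2* was at 0 in all PFF libraries and had 296, 289 and 446 in SCNT4c, 103, 29.2 and 114 in SCNT4c-KG (-2.25, adjusted p = 0.0319) and 162, 179 and 142 in SCNT4c-TDG (-1.07, adjusted p = 0.3). The *TBPL2* call in SCNT4c-KG was lost in 5 of 16 alternatives, without each SCNT4c library and without SCNT4c-KG replicate 2 (-1.63, adjusted p = 0.141) among them. *TBPL1* had means of 8.43, 39.8 and 21.9 in the same groups and did not pass.

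**Figure D3:**
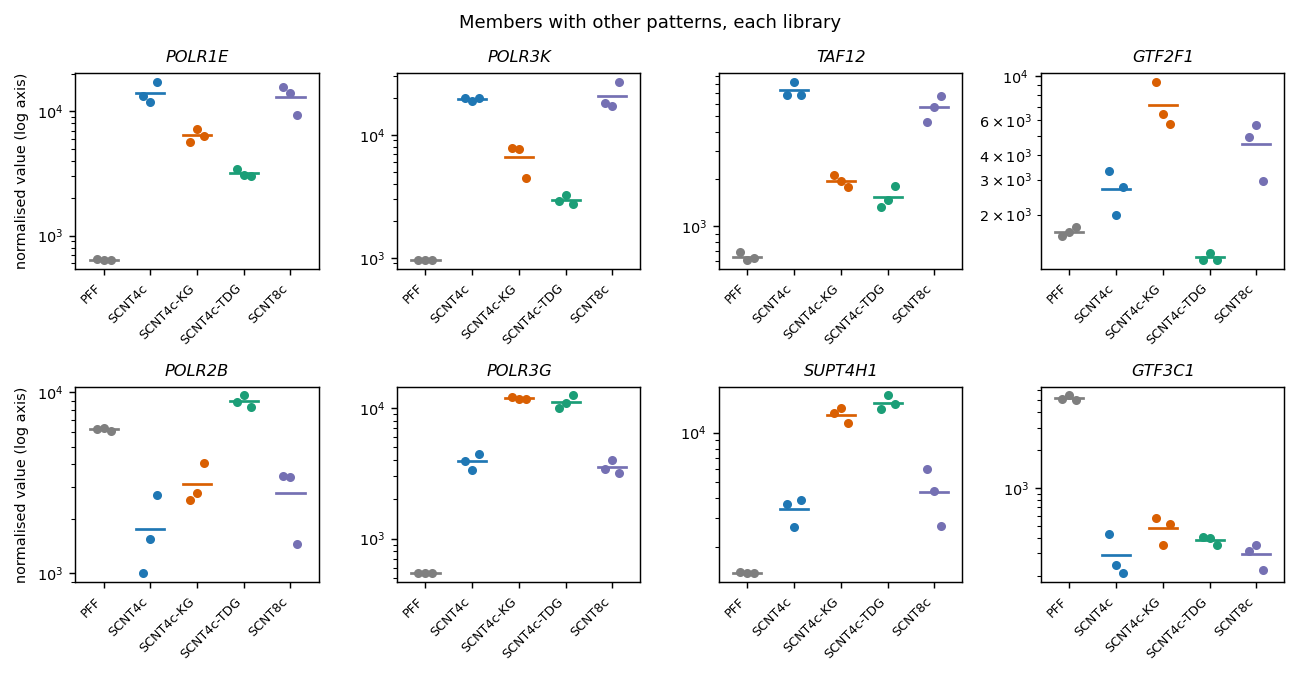
Normalised value (y axis, log scale) in each library (points) with group means (bars) for genes with other patterns in PFF, SCNT4c, SCNT4c-KG, SCNT4c-TDG and SCNT8c (x axis). *POLR1E*, *POLR3K* and *TAF12* are lower in both treated groups than in SCNT4c, *GTF2F1* moves in opposite directions, *POLR2B* is highest in SCNT4c-TDG, and *GTF3C1* is at 208 to 577 in all embryo libraries against 4962 or more in PFF.

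Of the elongation genes, *SUPT4H1*, which with *SUPT5H* encodes the factor DSIF that holds and releases paused Pol II, had 3676, 2668 and 3901 in SCNT4c, 13192, 14040.5 and 11385 in SCNT4c-KG and 14029.6, 16862 and 14889.9 in SCNT4c-TDG (log2 fold changes 1.93 and 2.17). *SUPT6H*, a histone chaperone that travels with Pol II, rose in SCNT4c-KG, from 1925, 1615 and 1858 to 4963, 5709 and 5071 (1.55, adjusted p = 5.49e-04), and had 2390.0, 2001 and 1722 in SCNT4c-TDG (0.17, adjusted p = 0.663). *SUPT5H* and *SUPT16H* had at most 5.08 and 0 on their own entries. From the list outside the rule, *CDK9*, the kinase that releases paused Pol II, was higher in SCNT4c-KG (means 803 and 2825, 1.85, adjusted p = 0.00195) and had 431 in SCNT4c-TDG (-0.80, adjusted p = 0.126). *GPN1* and *GPN3*, which help import and assemble Pol II, were higher in both (2.51 and 1.03 in SCNT4c-KG, 1.78 and 1.83 in SCNT4c-TDG), but the *GPN3* call in SCNT4c-KG was lost in 5 of 17 alternatives (0.56 after centring by exon length). *RPAP3*, an assembly chaperone, was lower in both, with 3786, 7362 and 7127 in SCNT4c, 882, 725 and 976 in SCNT4c-KG and 2078, 2031 and 2599 in SCNT4c-TDG (-2.77 and -1.39). Of the genes that regulate pausing, *HEXIM1* and *LARP7*, parts of the complex that holds CDK9 inactive, were higher in both (1.92 and 2.93 in SCNT4c-KG, 1.66 and 4.22 in SCNT4c-TDG). *LARP7* was almost without reads in SCNT4c (0.789, 1.75 and 0), and summed with the assembled transcripts of its locus it had 0.56 and 0.53 and did not pass. Its call in SCNT4c-KG was lost in 9 of 15 alternatives. That of *HEXIM1* was lost in 3 of 17 in SCNT4c-KG and in 8 of 17 in SCNT4c-TDG, with each SCNT4c and SCNT4c-TDG library left out among the latter. *NELFA*, a subunit of the pausing factor NELF, and *RPRD1B*, which binds the Pol II tail, were higher in SCNT4c-KG (3.54 and 1.31), each with the call lost in 2 alternatives. Without SCNT4c library c, *NELFA* had 2.38 (adjusted p = 0.0503). In SCNT4c-TDG *CCNT2*, a cyclin partner of CDK9, was higher (3.65) and *NELFCD*, another NELF subunit, was lower (-1.63), which was lost in 11 of 17 alternatives. *SSRP1*, the partner of *SUPT16H* in the histone chaperone FACT, had 0.73 and -0.24 and did not pass.

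The treated groups were also compared directly. In SCNT4c-TDG against SCNT4c-KG, 4 of the 59 genes were higher and 19 were lower, where 7.07% of all features were higher and 9.13% were lower. The genes lower in SCNT4c-TDG included *POLR1C* (-4.89), *POLR2L* (-3.19), *POLR2A* (-2.79), *GTF2F1* (-2.52), *GTF2H4* (-2.17), *GTF2B* (-1.67), *POLR2G* (-1.63) and *TAF11* (-1.54), with adjusted p of at most 0.0232. The 4 that were higher were *TAF2* (412, 372 and 420.4 against 1255, 1396 and 1325, log2 fold change 1.72), *POLR2B* (1.54), *TAF5* (1.53) and *GTF2H1* (1.224). The largest subunit of Pol II was thus lower and the second largest higher in SCNT4c-TDG than in SCNT4c-KG, each with no overlap between libraries. *POLR1A* was lower as well (-1.27, adjusted p = 0.0327), a call that was lost in 10 of 18 alternatives. The calls of *POLR2G*, *GTF2H4* and *TAF11* were lost in 7, 3 and 1 of them. That of *POLR2B* was lost without SCNT4c-KG replicate 1, SCNT4c-KG replicate 2 or SCNT4c-TDG replicate 2 (adjusted p = 0.061, 0.0559 and 0.0593). Those of *TAF5* and *GTF2H1* were lost in 4 and 6 of the 18. For *POLR3A* and *POLR3B* the differences were -0.16 and -0.42 (SE 0.36 and 0.31), and neither passed. The *POLR3A* libraries of the treated groups overlapped, while every SCNT4c-TDG library lay below every SCNT4c-KG library for *POLR3B*. With every library scaled to the same total, the median of all features moved from -0.02 to 0.34. There 7 genes were higher and 8 lower, while 3190 of 19546 features passed, 2050 of them higher. With quantile normalization 6 genes were higher and 12 lower, and after centring by exon length 5 and 11. The split of the genes and that of all features thus depended on the scaling.

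Between SCNT8c and SCNT4c, 4 of the 59 genes were higher and 0 were lower in limma, where 2.62% of all features were higher and 3.16% were lower. *GTF2H3* had 6327, 6418 and 2411 in SCNT8c against 478, 1649 and 1761 (log2 fold change 2.05, SE 0.46, adjusted p = 0.0274). *GTF2H2*, another TFIIH core gene, had 2674, 3038 and 1203 against 495, 703 and 918 (1.64, adjusted p = 0.0301), *POLR2I* 479, 421 and 216 against 112, 93.5 and 143 (1.61, adjusted p = 0.04) and *TAF3*, a TFIID subunit that reads H3K4 methylation, 156, 281 and 135 against 6.31, 33.2 and 39.9 (3.07, adjusted p = 0.0254). These groups did not overlap for the 4 genes. SCNT8c replicate 3 was the lowest of its group for all of them. Without it, 19 genes were higher and 1 was lower, but 6133 of 18990 features passed there as well, 2363 of them higher. Without either of the other SCNT8c libraries, or without SCNT4c library a or b, 0 of the genes passed in limma, with 9 to 13 higher and 0 to 2 lower at an unadjusted p under 0.05. Of all features, 31 to 174 passed in those fits. Without SCNT4c library c, 2 passed. A limma fit of these groups alone called 0 (8 higher and 1 lower at an unadjusted p under 0.05), edgeR called 6 and DESeq2 called 16, all higher. DESeq2 called 2733 of all 18942 features, 1962 of them higher. At an unadjusted p under 0.05, limma gave 18 higher and 2 lower genes in the fit of all the embryo libraries. The share of all features at that unadjusted limit is not given here. *POLR2K*, which rose so far in the treated embryos, had a log2 fold change of 1.20 (SE 0.35, adjusted p = 0.0552) between the stages, with SCNT8c wholly above SCNT4c. *POLR2A* stayed at 48.5, 29.9 and 63.4, with a log2 fold change of -0.01 (SE 0.46).

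Against the donor cells, 15 of the 62 tested genes were higher and 23 were lower in SCNT4c, where 39.7% of all features were higher and 38.5% were lower and the median of all features was 0.07. Among known genes alone, the shares by exon length class were 25.4% to 43.6% higher and 38.8% to 52.5% lower. The split of the 62 genes depended on the scaling, with 21 higher and 20 lower at the same total in every library, 23 and 21 with edgeR, 23 and 19 with DESeq2 and 25 and 16 after centring by exon length. The first 3 of these scalings moved the median of all features to 0.86, 0.96 and 1.01. The highest log2 fold changes were those of *POLR1E* (from 645, 637 and 635 in PFF to 14080.1 on average in SCNT4c, 4.44, adjusted p = 1.95e-06), *POLR3K* (957 to 19511, 4.35, adjusted p = 4.74e-07), *TAF5* (58.0 to 858, 3.93, adjusted p = 8.01e-05) and *TAF12* (641 to 7319, 3.51, adjusted p = 2.04e-06). Centring by exon length changed this order, with 5.12 for *TAF5*, 5.00 for *POLR1E*, 4.43 for *POLR3K*, 4.32 for *POLR3G* and 4.07 for *TAF12*. *POLR1E*, *POLR3K* and *TAF12* are the genes that were lower in both treated groups than in SCNT4c, and every treated library still lay above every PFF library for each of them. *POLR2J* (2.997, adjusted p = 3.68e-05), *POLR3G* (2.84, adjusted p = 7.13e-06), *POLR1D* (2.51, adjusted p = 1.21e-05), *GTF2E1* (2.00, adjusted p = 0.00252), *GTF2A2* (1.94, adjusted p = 5.22e-05) and *SUPT4H1* (1.27, adjusted p = 5.22e-04) were higher too. Of the 32 tested genes of the list outside the rule, 6 were higher and 16 were lower. *GPN3* (3.31) was among the higher, as was *TBPL2*, which was at 0 in PFF (adjusted p = 2.06e-06). Among the lower were *HEXIM1* (-6.67), *NELFA* (-5.27), *CCNT2* (-4.80) and *UBTF* (-2.93, or -1.45 after centring by exon length).

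The lowest were *POLR2A* (log2 fold change -5.95, SE 0.17, adjusted p = 1.07e-06), *TAF6* (from 253, 302 and 261 in PFF to 14.99, 8.74 and 0.830 in SCNT4c, -5.37, adjusted p = 9.80e-04) and *TAF10* (-4.76, adjusted p = 4.96e-05). Centred by exon length, they had -4.58, -4.18 and -4.84. Of the 7 TFIIIA and TFIIIC genes 5 were lower, with a median log2 fold change of -3.60. This compares with 38.5% of all features, and with 38.8% to 52.5% of known genes by exon length class. *GTF3C5* had 1091, 1024 and 1038 in PFF and 123, 27.1 and 29.9 in SCNT4c (-4.47, adjusted p = 5.31e-04), and *GTF3C1*, whose product contacts the B box of transfer RNA genes, 5099, 5442 and 4962 and 426, 240.3 and 208 (-4.22, adjusted p = 2.30e-05). *GTF3C2* and *GTF3C6* stayed under the 2-fold limit (0.66 and 0.78). Centred by exon length, the 5 lower genes had -1.51 for *GTF3C3*, -2.23 for *GTF3C4*, -2.51 for *GTF3A*, -2.85 for *GTF3C1* and -3.28 for *GTF3C5*, and all passed. *POLR1A* (-3.16), *POLR1B* (-1.91), *POLR2B* (-1.96), *POLR2L* (-3.86), *POLR2I* (-2.69), *POLR3E* (-1.93), *GTF2H1* (-2.79), *GTF2F2* (-2.16) and *SUPT6H* (-1.84) were lower as well. Centring by exon length ended the calls of *POLR1B* (-0.43, adjusted p = 0.374), *POLR2B* (-0.47, adjusted p = 0.293), *POLR3E* (-0.74, adjusted p = 0.0613) and *SUPT6H* (-0.35), and gave -1.80 for *POLR1A*, -2.67 for *POLR2L* and -1.60 for *GTF2H1*. *POLR1B* was lost with quantile normalization (-0.98, adjusted p = 0.104) and in DESeq2 (-0.99) too. Some genes whose exons overlap those of the lower genes were themselves lower, with -3.18 for *PTCD3* beside *POLR1A*, -9.48 for *IGFBP7* beside *POLR2B*, -8.90 for *TSPAN4* beside *POLR2L*, -7.55 for *ILK* beside *TAF10* and -3.05 for *MTIF3* beside *GTF3A*. Lower neighbours also lay beside higher genes. These were *XPO5* (-5.83) at *POLR1C*, *LOC106505238* (-7.69) at *POLR1D*, *RASA4B* (-2.52) at *POLR2J*, *MBLAC2* (-3.78) at *POLR3G*, *RABL3* (-3.01) at *GTF2E1* and *USMG5* (-1.66) at *TAF5*. What part the overlaps had in the calls was not tested. *POLR3A* and *POLR3B* had -0.81 and -0.99, under the 2-fold limit, and 0.56 and 0.49 after centring. *GTF2H5* was lower by its own entry (-1.44, adjusted p = 0.0163) but higher when summed with the assembled transcripts of its locus (1.23, adjusted p = 0.00831), and 5 further alternatives ended the call. The medians of all known genes ran from 0.10 in the shortest exon class to -1.60 at 4000 to 6000 bases and -1.44 above in this comparison, and among the 62 genes from -0.13 up to 1500 bases to -1.16 over 4000 bases.

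**Figure D4:**
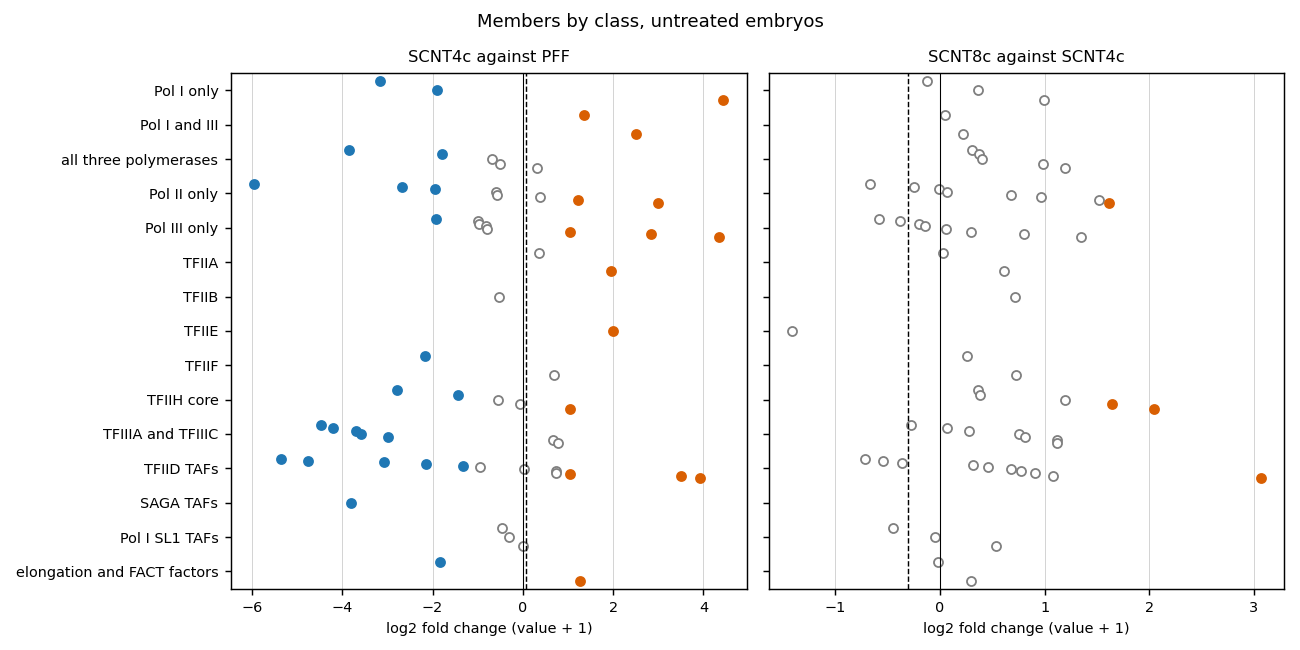
Log2 fold change of each tested gene (x axis) by class (y axis) in SCNT4c against PFF and in SCNT8c against SCNT4c, with filled points for genes that passed the test (orange higher, blue lower), open points for the others, and a dashed line at the median of all features tested (0.07 and -0.31). Against PFF the genes spread from -5.95 to 4.44 with TFIIIA and TFIIIC mostly at the low end, while 4 points are filled between the embryo stages.

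Transcript length moved with the fold changes. Over all known genes tested, the median log2 fold change in SCNT4c-KG against SCNT4c was 2.29 for exon lengths up to 500 bases, 1.26 for those of 500 to 1000 and -0.58 for those above 6000. In SCNT4c-TDG it was 0.91, 0.79 and -0.04, with the lowest value, -0.38, at 1500 to 2500 bases. Several of the largest rises belong to short genes, with annotated exon lengths of 491 bases for *POLR2K*, 587 for *POLR2F*, 774 for *TAF10* and 948 for *GTF2H5*. After the values were centred by exon length in each library, the log2 fold changes in SCNT4c-KG were 5.74 for *POLR2K*, 4.37 for *POLR2F*, 2.34 for *TAF10* and 3.38 for *GTF2H5*, and in SCNT4c-TDG 6.52, 3.54, 2.31 and 3.35, and all passed. *GTF2H5* had 2.75 in SCNT4c-KG and 2.18 in SCNT4c-TDG when summed with the assembled transcripts of its locus. Among the 59 genes, Spearman rho between exon length and log2 fold change was -0.28 in SCNT4c-KG and -0.14 in SCNT4c-TDG, over genes that share the same libraries. The 21 tested genes with more than 4000 exon bases had medians of 0.97 and 0.77, of which 9 and 10 were higher and 1 and 2 were lower. Of all known genes tested, 15.6% were higher and 21.9% lower in SCNT4c-KG at 4000 to 6000 bases and 11.2% and 21.8% above, against 17.6% and 15.7%, and 16.9% and 14.1%, in SCNT4c-TDG. *POLR2A*, *POLR3G* and *TAF1D* are among them. With that centring, 33 genes were higher and 3 lower in SCNT4c-KG, and 31 and 6 in SCNT4c-TDG.

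**Figure D5:**
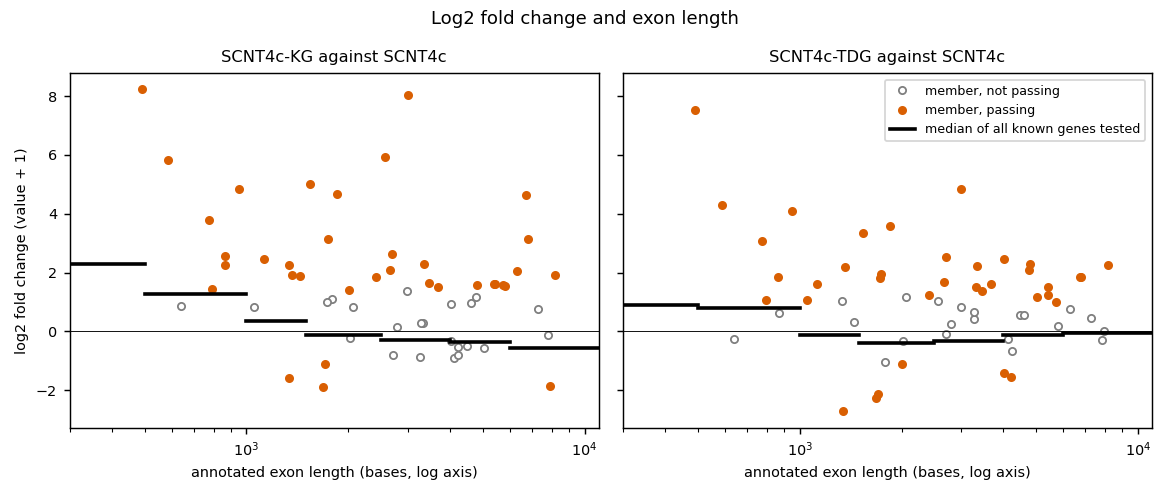
Log2 fold change of each of the 59 tested genes (y axis) against annotated exon length (x axis, log scale) in SCNT4c-KG and SCNT4c-TDG against SCNT4c, filled where the test was passed, with black bars for the median of all known genes tested in each length class. The bars run from 2.29 down to -0.58 in SCNT4c-KG, and in SCNT4c-TDG from 0.91 through -0.38 to -0.04.

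Some members are listed at or near 0 where reads at the locus were given to an unnamed assembled transcript. At the *SUPT5H* locus, where the annotation places no other gene, the assembled transcript had 171, 84.8 and 176 in SCNT4c, 423, 487 and 242 in SCNT4c-KG and 500.1, 715 and 514 in SCNT4c-TDG, against 2.55 to 11.9 in PFF. Both treated groups were above every SCNT4c library, as were 4609 of 18942 features tested in SCNT4c-KG and 4782 in SCNT4c-TDG. At the *SUPT16H* locus, which holds 7 known genes, assembled transcripts summed to 919 on average in SCNT4c, 2445 in SCNT4c-KG, 847 in SCNT4c-TDG and 552 in PFF. At the *TAF15* locus they summed to 312 in SCNT4c, 106 in SCNT4c-KG and 135 in SCNT4c-TDG, and at the *GTF2IRD1* locus to 999.8, 813 and 122. Which gene such reads belong to is not stated, so a value of 0 for these genes does not show that they were silent.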

How the data were processed

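The data were RNA-seq libraries of PFF, SCNT4c, SCNT4c-KG, SCNT4c-TDG and SCNT8c, 3 of each. According to the study's methods and processing notes, the authors removed adapters with Trimmomatic 0.39, aligned unique reads to Sscrofa11.1 with STAR 2.5.3a, assembled transcripts with StringTie 2.1.2, counted with HTSeq and normalised with DESeq2, after base calling with CASAVA 1.8.2. Strand use and library batches are not given in the sources used here. The deposited values are a normalised read signal per gene or assembled transcript: read counts divided by 1 factor per library. Whole reads, within 0.01 read, were recovered for 100% of the values checked, and edgeR on them called 36, 38, 18, 6 and 44 of the genes in the order in which the report gives the comparisons.

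From the 43535 entries, 241 repeats were removed. Values were tested as log2(value + 1) in limma 3.58.1 (R 4.3.3) with a mean-dependent prior variance, over features with a mean of at least 10, in 1 fit of the 12 embryo libraries and another of the 6 libraries of SCNT4c and PFF. A gene passed at a Benjamini-Hochberg adjusted p under 0.05 over all features and a fold change above 2. An exact permutation test of 3 libraries against 3 cannot go below 0.1. Nothing states that libraries of a group came from separate cultures, so p-values measure the spread between these libraries. Depth was 12354649 to 22868038 recovered reads per library, and any interval from it would cover counting error only. The SCNT4c libraries are called a, b and c because their labels number them in conflicting ways. Descriptions of SCNT4c-KG samples also carry names of SCNT4c columns, so groups were taken from the sample titles and column names. The labels' replicate numbers were not treated as pairs: deviations of same-numbered libraries correlated at -0.061 to 0.195.

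Exon lengths, overlaps and promoters came from RefSeq for Sscrofa11.1. All 77 genes matched. Genes named by rule were *SUPT4H1*, the catalytic subunits, paralog pairs, and per class up to 3 higher and 2 lower passing genes by fold change whose groups did not overlap and whose higher group averaged 50 or more. For the stages and between treatments, they were up to 10 passing genes. The rule also names every partner gene that passed, and *TBP*, *TBPL1*, *TBPL2*, *SSRP1*, *ERCC3* and *CDK7*. Outside the treated groups against SCNT4c, only some passing partner genes are named. Other genes named were chosen after their values were seen. The fit was tested on simulated data. Alternatives were other scalings, pseudocount and filter settings, edgeR 4.0.16 and DESeq2 1.42.0 on the recovered reads, fits of 2 groups alone, locus sums, leaving out each library and, added after the data were seen, centring by exon length. The genes and lists were chosen with earlier results of these data known. The values of 1 gene are not reported here.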

Additional observations from a re-analysis of the deposited data

Results flagged for a closer look

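*GTF2F1*, the larger TFIIF subunit, moved in opposite directions in the treated groups. It was higher in SCNT4c-KG (1.41) and lower in SCNT4c-TDG (-1.11) than in SCNT4c. The lower call was lost in 5 of 17 alternatives (-0.94 to -0.72). It was flagged because its calls against SCNT4c were opposite and its adjusted p between the treated groups was under 0.05. The direct limma comparison that entered this choice gave -2.52 on the log2 scale (adjusted p = 1.29e-04). All 3 SCNT4c-TDG libraries lay below all 3 SCNT4c-KG libraries.

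An unnamed assembled transcript, which is not counted among the 77 genes, lies at the *SUPT5H* locus, where *SUPT5H* itself has almost no reads. The flag required every library of a treated group to lie above every SCNT4c library, so that separation was fixed by the choice. Its mean was 384 in SCNT4c-KG and 576 in SCNT4c-TDG, and the SCNT4c libraries had 84.8 to 176. Of 18942 features tested, 4609 in SCNT4c-KG and 4782 in SCNT4c-TDG lay wholly above SCNT4c.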

How the results depend on the processing

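The number of the genes that passed was within 1.5 times the limma count under every alternative for SCNT4c-KG and SCNT4c-TDG against SCNT4c and for SCNT4c against PFF. Leaving out 1 library gave 34 to 38, 31 to 35 and 34 to 39. For SCNT4c-TDG against SCNT4c-KG, the same total in every library gave 15 in place of 23, and leaving out 1 library 11 to 18, with 11 without SCNT4c-KG replicate 2, 13 without SCNT4c-TDG replicate 3, 14 without SCNT4c-TDG replicate 2 and 15 without SCNT4c-KG replicate 1. Over all features, 1340 were higher and 1730 lower in limma, 3190 passed with the same total, and 1794 to 2100 passed without 1 of these libraries. Between SCNT8c and SCNT4c, DESeq2 gave 16 in place of 4, the fit of those groups alone 0, centring by exon length 8, and leaving out 1 library 0 to 20. Over all features, DESeq2 called 2733, centring by exon length 1403, and leaving out 1 library 31 to 6133. The cause of these shifts was not tested. With the same total, quantile normalization, edgeR or DESeq2, the median of all features was -0.39 to -0.09 in SCNT4c-KG, -0.09 to 0.02 in SCNT4c-TDG and -0.26 to 0.07 in SCNT8c, each against SCNT4c.

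With the replicate block, fitted on the treated libraries by themselves, 26 genes passed for SCNT4c-TDG against SCNT4c-KG, as without the block. The numbers are not known to pair these libraries. For the comparisons with SCNT4c and PFF no paired analysis was possible because the columns of SCNT4c carry no usable number. The alternatives for paralog balance were not run, since 1 gene of each pair was at or near 0.

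Of 125 single-gene values, 84 kept their direction and side of the threshold in every alternative. In all 2139 repeats, 1999 did, 105 lost their call, 14 gained one and 21 changed sign. Changed signs in values that had passed were those of *POLR1D* in SCNT4c-KG (-0.0102, centred by length) and *GTF2H5* against PFF (1.23, locus sum). The others lay near 0 or under the limits. Centring by exon length moved 30 of the 125 values by more than 1.5 times. In alternatives chosen after the data were seen, the listed genes outside the rule that had passed kept their call throughout for 12 of 19 in SCNT4c-KG, 11 of 15 in SCNT4c-TDG, 18 of 22 against PFF, 3 of 9 between treatments and 0 of 2 in SCNT8c. Of the passing genes not named by rule, 4 of 5, 3 of 7, 3 of 8 and 1 of 12 did so in the first 4 of these comparisons. *POLR3A* in SCNT4c-KG was 0.00442 (quantile) and 0.38 (length), and -0.41 to 0.0444 with 1 library left out. Between treatments *POLR3A* was 0.21 (same total), and -0.34 to 0.0218 with 1 library left out. Against PFF it was 0.0756 (quantile), 0.0377 (DESeq2) and 0.56 (length), where *POLR3B* was 0.49 (length). In SCNT8c *POLR1A* was -0.0858 to 0.60 with 1 library left out, and *POLR2A* was 0.043 (same total), 0.27 (quantile), 0.19 (edgeR), 0.26 (DESeq2), 0.00173 (locus sum) and 0.37 (length), and -0.25 to 0.28 with 1 library left out.

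SCNT4c-KG had the fewest reads, and genes under a mean of 10 were not tested.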
